A study of Mus musculus with 8 samples.

Results

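The miR-297, miR-466, miR-467 and miR-669 families are mouse microRNAs whose genes lie, for the most part, one after another inside the gene Sfmbt2. They were taken here as every mouse miRNA on the array whose name holds one of these 4 family numbers, followed by a letter, a hyphen or the end of the name. This gave 61 of the 1881 mouse miRNAs of the array, measured by 162 of its 4415 probes. The miR-297 family had 3 members, miR-466 had 23, miR-467 had 12 and miR-669 had 23. By name, 25 were 5p arms, 26 were 3p arms and 10 carried no arm.

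Kidneys came from male mice of the C57BL/6 strain, 8 weeks old, and were taken 7 days after surgery. One group had unilateral ureteral obstruction (UUO), in which the ureter of one kidney is tied off, and the other had sham surgery (Sham). Each group had 4 arrays, named Sham 1, 2, 3 and 8 and UUO 1 to 4, with 1 sample per array. The labels do not say that the samples came from separate mice, so p-values measure the spread between these samples, which may be technical. All 8 arrays lay on 1 slide with 1 scan time, Sham in slide row 1 and UUO in slide row 2, so slide row and group cannot be told apart.

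Sfmbt2 encodes a Polycomb group protein and is an imprinted gene, expressed from the paternal copy in early embryos and in the placenta. The large miRNA cluster in one of its introns is found in rodents and is known mainly from placenta and embryonic stem cells. A miRNA is cut from a hairpin, which can give a 5p and a 3p strand. The seed, bases 2 to 8 of the mature strand, does most of the pairing with target messenger RNAs. Many members of these families hold runs of alternating bases, and the cluster is known to have grown by repeated copying of neighbouring stretches.

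The name of the cluster holds for most members but not for all. RefSeq (GRCm38.p6) lists 81 genes of the 4 families, of which 71 lie within the bounds of Sfmbt2. Matched by name, 60 of the 61 members had a RefSeq gene. For 52 of them a gene lay within Sfmbt2, and for 8 the genes lay only elsewhere. The array's own annotation places 31 members at chr2:10388918-10438764 (mm9), a stretch of 49847 bases, 1 member (miR-466i-3p) on chromosome 13, and 29 nowhere. Of the 31, miR-669b-5p is also listed on chromosomes 7 and 10. Among the 11 members bright enough to be tested, 6 had a RefSeq gene within Sfmbt2. The other 5 did not: both arms of miR-466i (chromosome 13), miR-467f (chromosome 11), miR-466q (chromosome 3) and miR-669n (chromosome 3). The set is therefore named here by its families.

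The probe sequences are shown first because they set what can be told apart. Each line gives the probe used for 1 of the 10 members detected on all 8 arrays, 5′ to 3′, as the deposited files list it. Capitals mark the longest stretch in which G and T, or C and A, alternate.
miR-466i-5p: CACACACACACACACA
miR-467f: tgtagGTGTGTGTGTGT
miR-466h-3p: GTGTGTGTGTGcgt
miR-466q: acgtaTGTGTGTGTGTG
miR-669p-3p: atacGTGTGTGTGTGTatg
miR-466f-3p: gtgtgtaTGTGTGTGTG
miR-466i-3p: tagtgtgtaTGTGTGTGTG
miR-669f-3p: atacGTGTGTGTGTatgt
miR-669n: acacacatcCACACACAa
miR-669c-3p: tttactTGTGTGTGTGTG

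All 10 probes hold an alternating stretch of 8 or more bases. The probe of the 11th tested member, miR-467b-5p, does not.
miR-467b-5p: catatACAtgcaggcact

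RefSeq (GRCm38.p6) held the mature sequence of 7 of the 61 members, 4 of them tested. They are shown with the seed in capitals, and in all 4 the probe above is the reverse complement of the miRNA's 3′ end.
miR-467f: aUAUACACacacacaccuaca
miR-466q: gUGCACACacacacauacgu
miR-466i-3p: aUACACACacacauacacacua
miR-669n: aUUUGUGUguggaugugugu
The 4 seeds differ from one another. The seeds of miR-467f, miR-466q and miR-466i-3p run into the CA repeat, whereas that of miR-669n runs into a GU repeat.

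No probe was shared by 2 members of the list, but many differed little. For 22 members a probe lay within 1 insertion, deletion or substitution of another member's probe, and for 46 within 2. Of 1830 pairs of members, 47 had probes within 2 such edits. For 11 members the array annotation itself put several miRNA names on the probe: that of miR-669n also stands for miR-669c-5p, and that of miR-669f-3p also for miR-669a-3p and miR-669o-3p. A member's value can therefore hold signal from its near copies, and the size of that share was not tested.

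Signals are given as log2 of the processed signal, scaled per array to the 75th percentile of the 623 probes that every array detected. Values under −4.89, the highest among the arrays' weakest detected signals, were raised to that floor. Detection of a probe needed over 50% of its spots on that array to stand well above background. On this scale 10 members were detected on all 8 arrays, 1 on 4 arrays, 4 on 1 to 3 arrays and 46 on none. The 11 members detected on at least 4 arrays were tested, 18.0% of the members against 21.7% of all miRNAs on the array. By family, 0 of 3 miR-297, 5 of 23 miR-466, 2 of 12 miR-467 and 4 of 23 miR-669 members were tested. Of the 26 members named as 3p arms 6 were tested, of the 25 named as 5p arms 2, and of the 10 with no arm 3.

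The only comparison was UUO against Sham, fitted with limma over the 408 tested miRNAs with Benjamini-Hochberg adjustment and called at an adjusted p under 0.05. Among the 11 tested members, 3 rose, 7 fell and 1 was not called. Much of the array changed: 39.7% of all tested miRNAs were called higher and 27.7% lower. Against that background the members called higher were 27.3% and those called lower 63.6% of the tested members. The median difference of the tested members was −0.54, against 0.06 for all tested miRNAs. The groups did not overlap in 10 of the 11 tested members, which were the called ones. Among all 408 tested miRNAs, called or not, they did not overlap in 250 (61.3%). Scaled to the array's dmr control probes instead, 4 members were called higher and 4 lower, beside 240 and 64 of all 408 tested miRNAs. On the software's total signal per miRNA 6 were called higher and 8 lower of 16 tested, beside 109 and 217 of all 499 tested there. Of those 6, 5 were detected by the software on 4 UUO and 0 Sham arrays and met the filter through UUO alone. Of the 3 members called higher above, the total signal kept 1, miR-669f-3p. With the floor doubled, 1 member was called higher and 5 lower, beside 129 and 98 of all 408.

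**Figure D1:**
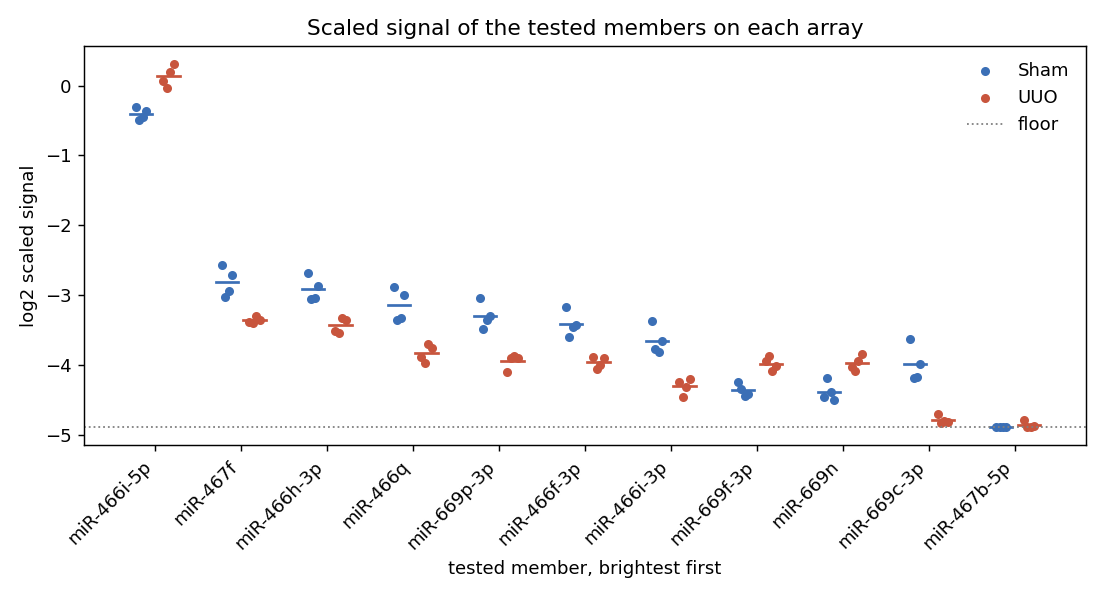
Log2 scaled signal (vertical axis) of the 11 tested members on each of the 4 Sham (blue) and 4 UUO (red) arrays. Each point is 1 array, short lines are group means and the dotted line is the floor at −4.89. The first member is miR-466i-5p, near 0, and the 7 members whose UUO points lie lower range from −2.58 to −4.83. In miR-669f-3p and miR-669n the UUO points lie higher.

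The brightest member was miR-466i-5p, which ranked 95th by mean signal among the 408 tested miRNAs. The other 10 tested members ranked 221st to 405th. The scaled signal of miR-466i-5p was −0.31, −0.49, −0.45 and −0.37 in Sham 1, 2, 3 and 8, and 0.07, −0.04, 0.19 and 0.31 in UUO 1 to 4. Every UUO array was above every Sham array. Its mean rose from −0.41 ± 0.08 to 0.13 ± 0.15 (SD, n = 4 each), a difference of 0.54 ± 0.08 (SE) or 1.45-fold, with an adjusted p of 0.000613 by limma. On the software's total signal per miRNA its difference was 0.20 with an adjusted p of 0.0884. Its probe, shown above, is made of the repeat alone.

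The other arm of the same hairpin, miR-466i-3p, went the other way. Its signal was −3.37, −3.77, −3.81 and −3.66 in the Sham arrays and −4.25, −4.46, −4.32 and −4.20 in the UUO arrays, with no overlap. The difference was −0.65 ± 0.11 (SE, n = 4 each), or 1.57-fold lower, with an adjusted p of 0.000888 by limma. With the floor doubled it was −0.24 with an adjusted p of 0.0817. The array annotation places it at chr13:17839390-17839407 (mm9), outside Sfmbt2. Whether the arms of this hairpin differ in their change was not tested as an interaction.

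The other members that fell were also measured by probes with a long GT stretch. In miR-467f the Sham arrays read −2.58, −3.02, −2.95 and −2.72 and the UUO arrays −3.38, −3.40, −3.29 and −3.35, a difference of −0.54 ± 0.10. The values of miR-466h-3p were −2.68, −3.06, −3.04 and −2.87 in Sham and −3.51, −3.54, −3.32 and −3.36 in UUO, a difference of −0.52 ± 0.10. For miR-466q they were −2.89, −3.35, −3.33 and −3.0 against −3.89, −3.97, −3.69 and −3.75, a difference of −0.69 ± 0.12. In all 3, Sham 1 and Sham 8 were the highest arrays and all UUO arrays lay below the lowest Sham array. Their adjusted p-values by limma were 0.00146, 0.00167 and 0.00126.

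miR-466f-3p, whose RefSeq genes lie on chromosomes 2 and 13, read −3.17, −3.59, −3.45 and −3.43 in Sham and −3.89, −4.06, −4.00 and −3.90 in UUO. The difference was −0.55 ± 0.09 (SE), with an adjusted p of 0.00104 by limma. The probe shown for it lies within 2 edits of the one shown for miR-466i-3p, and another of its probes within 2 edits of one of miR-466h-3p. With sets of members whose shown probes lie that close counted as 1, 3 members rose and 6 fell. With sets joined through any of their probes, which also joins miR-669f-3p to miR-669p-3p, 2 rose and 5 fell, the brightest of each set being kept.

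In the miR-669 family, miR-669p-3p and miR-669c-3p fell. miR-669p-3p, listed at chr2:10410799-10410817 (mm9), read −3.04, −3.49, −3.35 and −3.30 in Sham and −4.10, −3.90, −3.87 and −3.89 in UUO, a difference of −0.65 ± 0.10 with an adjusted p of 0.00069 by limma. miR-669c-3p, at chr2:10430991-10431007 (mm9), read −3.62, −4.19, −4.17 and −3.99 in Sham and −4.70, −4.83, −4.80 and −4.81 in UUO. Its difference of −0.79 ± 0.12, or 1.73-fold lower, was the largest of the tested members, with an adjusted p of 0.000595 by limma. With the floor doubled, which lies above all UUO values of miR-669c-3p, its difference was −0.07 with an adjusted p of 0.452.

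The other called members of that family, miR-669f-3p and miR-669n, rose. miR-669f-3p, at chr2:10388918-10388934 (mm9), read −4.24, −4.35, −4.45 and −4.42 in Sham and −3.95, −3.87, −4.08 and −4.02 in UUO. The difference was 0.38 ± 0.07 (SE), or 1.30-fold, with an adjusted p of 0.00125 by limma. miR-669n, whose probe the array annotation lists at chr2:10430951-10430967 (mm9) and RefSeq's gene on chromosome 3, read −4.46, −4.19, −4.38 and −4.50 in Sham and −4.02, −4.09, −3.95 and −3.85 in UUO. The difference was 0.41 ± 0.08 (SE), or 1.33-fold, with an adjusted p of 0.00263 by limma. Both lie close to the floor. With a normexp background correction (offset 50) their differences were −0.0104 and −0.00382, with adjusted p-values of 0.844 and 0.938. With the floor doubled they were 0.00379 and 0.01, with adjusted p-values of 0.507 and 0.452. On the total signal and the deposited ratios miR-669n was at 0.06 and 0.10, with adjusted p-values of 0.657 and 0.429.

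miR-669f-3p and miR-669p-3p have near-identical probes, as the sequences above show: both begin with the same 4 bases, and the GT stretch is 10 bases long in the first and 12 in the second. Within each array, the signal of miR-669f-3p minus that of miR-669p-3p was −1.20 to −0.86 in Sham and −0.22 to 0.16 in UUO. The ranges of the groups did not overlap. This had to follow, since every UUO array lay above every Sham array in miR-669f-3p and below every Sham array in miR-669p-3p. The rise of miR-669f-3p was not kept with normexp or the doubled floor, as given above. This pair was chosen for description after its values were seen, so it adds no support beyond the separate calls of these members. It concerns signals of different probes within an array and shows no difference in level.

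miR-467b-5p, at chr2:10402887-10402903 (mm9), was the tested member that was not called. It was detected on 4 UUO arrays and 0 Sham arrays, and its scaled signal was at the floor of −4.89 in every Sham array and between −4.89 and −4.79 in UUO. The fitted difference was 0.03 ± 0.04, with an adjusted p of 0.59 by limma. It entered the test through its UUO arrays alone. Against the mean of each Sham array's own weakest detected signal, −4.98, its UUO mean was 1.09-fold higher. That signal is under the common floor, against which the UUO mean was 1.02-fold higher. In the UUO mean, UUO 2 and UUO 3 stand at the floor, so these folds are not lower bounds. Other settings did call it higher: the difference was 0.25 with no scaling (adjusted p of 0.00799 by limma), 0.27 with dmr scaling (0.00256), 1.46 on the total signal (5.35e-05) and 5.15 on the deposited ratios (2.47e-07). In those last settings an undetected total stands at a small constant, and miR-467b-5p again met the filter through its UUO arrays alone. Its unscaled processed signal was 6.55 to 8.27 in Sham and 14.6 to 17.4 in UUO with no overlap, and all Sham values lay under the floor.

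Among the 7 members that fell, Sham 1 was the highest Sham array in all 7, and Sham 1 and Sham 8 both lay above Sham 2 and Sham 3 in all 7. The same order of Sham arrays was found in 188 of the 408 tested miRNAs (46.1%). Leaving out Sham 1 or any other array kept 3 members called higher and 7 lower. The part of these arrays in the result was not tested beyond that.

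Members were also counted by repeat motifs on their probes. An 8-base stretch of TGTGTGTG occurred on the probes of 11 members, 18.0% of them, and of 0 other miRNAs, so that 0.585% of all miRNAs on the array hold it. A stretch of CACACACA, its reverse complement, occurred on the probes of 6 members (9.84%) and of 5 other miRNAs, also 0.585% of all. The motif ACATACAT, read on the reverse complement of the probe, occurred in 0 members and in 1 other miRNA. Together 17 members (27.9%) and 23 of all 1881 miRNAs (1.22%) held at least 1 of these motifs. Of the 17, 10 were tested. Of the 44 members without any, 1 was, namely miR-467b-5p.

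Among the tested members the counts by motif were as follows, with no test of the relation. Of the 8 tested members with the GT motif on the probe, 7 fell and 1, miR-669f-3p, rose. Of all tested miRNAs 27.7% were called lower. The 7 are not separate results, since miR-466f-3p has probes within 2 edits of those of miR-466h-3p and miR-466i-3p. Both tested members with the CA motif, miR-466i-5p and miR-669n, rose. The 3 tested miRNAs outside the 4 families with the CA motif were also called higher: miR-1187 by 0.37 ± 0.06, miR-3082-5p by 0.58 ± 0.06 and miR-574-5p by 0.45 ± 0.09 on the log2 scale (SE), with adjusted p-values of 0.00127, 8.7e-05 and 0.0025 by limma. All 5 tested miRNAs of the array with this motif were thus higher in UUO, beside a background of 39.7%. Their probes, with the alternating stretch in capitals, show how alike they are to that of miR-466i-5p.
miR-1187: ttacacacatACACACACA
miR-3082-5p: acacagACACACACAC
miR-574-5p: acacactCACACACACAC
What part of these signals comes from the named miRNA, and what part from other RNA with the same repeat, was not tested.

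The share of probes detected was highest among those with the longest repeats. Of the 40 member probes with a longest stretch of at most 5 bases, 1 was detected on 4 or more arrays. For stretches of 6 to 7 bases it was 0 of 61 probes, for 8 to 9 bases 3 of 43, and for 10 bases or more 15 of 18. This is a description over probes that share arrays, families and base composition, and it does not separate the repeat from the length of the probe.

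**Figure D2:**
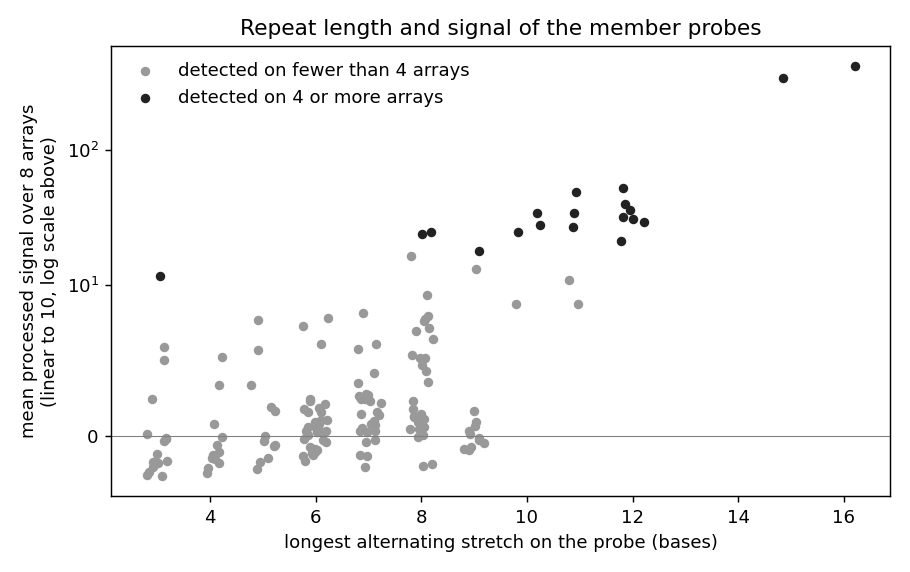
Mean processed signal over the 8 arrays (vertical axis, linear up to 10 and logarithmic above) against the longest alternating stretch (horizontal axis, bases) of the 162 member probes. Points are jittered sideways, and black points are probes detected on 4 or more arrays. Of the 18 probes with a stretch of 10 bases or more, 15 are black. The probe of miR-467b-5p is the black point at 3 bases.

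Nested probes of a member show how signal changed with single added bases. The array carries 4 probes for miR-466f-3p, which differ only by bases added at the 3′ end.
miR-466f-3p, 14 bases: gtgtgtaTGTGTGT
miR-466f-3p, 15 bases: gtgtgtaTGTGTGTG
miR-466f-3p, 16 bases: gtgtgtaTGTGTGTGT
miR-466f-3p, 17 bases: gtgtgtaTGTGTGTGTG
Their unscaled processed signals over the 8 arrays ran from −0.654 to 2.05, from 4.78 to 10.3, from 15.6 to 22.2 and from 26.1 to 46.0, so the ranges did not overlap from one length to the next. In this member the repeat and the probe lengthen together. In miR-466g they do not, since all 4 of its probes hold the same repeat of 8 bases and only the bases after it are added.
miR-466g, 13 bases: TGTGTGTGcatgt
miR-466g, 14 bases: TGTGTGTGcatgtg
miR-466g, 15 bases: TGTGTGTGcatgtgt
miR-466g, 16 bases: TGTGTGTGcatgtgtc
Their signals in Sham were 1.70 ± 1.21, 6.71 ± 3.24, 8.61 ± 1.21 and 19.8 ± 9.49, and in UUO 1.23 ± 0.63, 4.09 ± 1.95, 7.30 ± 1.46 and 12.9 ± 3.98 (SD, n = 4 each). In miR-466g mean signal thus also rose with probe length at a constant repeat, but this did not hold in every member. The miR-669p-3p probes of 16, 17, 18 and 19 bases share a stretch of 12 bases. Their means were 35.9, 34.6, 37.8 and 41.7 in Sham and 26.2, 23.7, 26.2 and 30.3 in UUO. In miR-669h-3p the longer probe read lower, with means of 5.34 at 18 bases and 3.25 at 19 bases in Sham. Of the miR-466f-3p probes, those of 16 and 17 bases were detected on all arrays. The log2 differences of these probes, each fitted alone, were −0.36 ± 0.07 and −0.55 ± 0.09. For miR-669c-3p the 17-base probe read 11 ± 1.79 in Sham and 6.57 ± 0.56 in UUO, and the 18-base probe 25.9 ± 5.40 and 16.9 ± 1.34 (SD, n = 4 each). In miR-669f-3p, whose probes share a stretch of 10 bases, the shorter probe read 7.41 ± 1.10 in Sham and 10.2 ± 0.83 in UUO, and the longer probe 19.8 ± 1.49 and 29.5 ± 1.68. The direction was thus the same on both probes of each of these members, including the probe that was not detected.

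**Figure D3:**
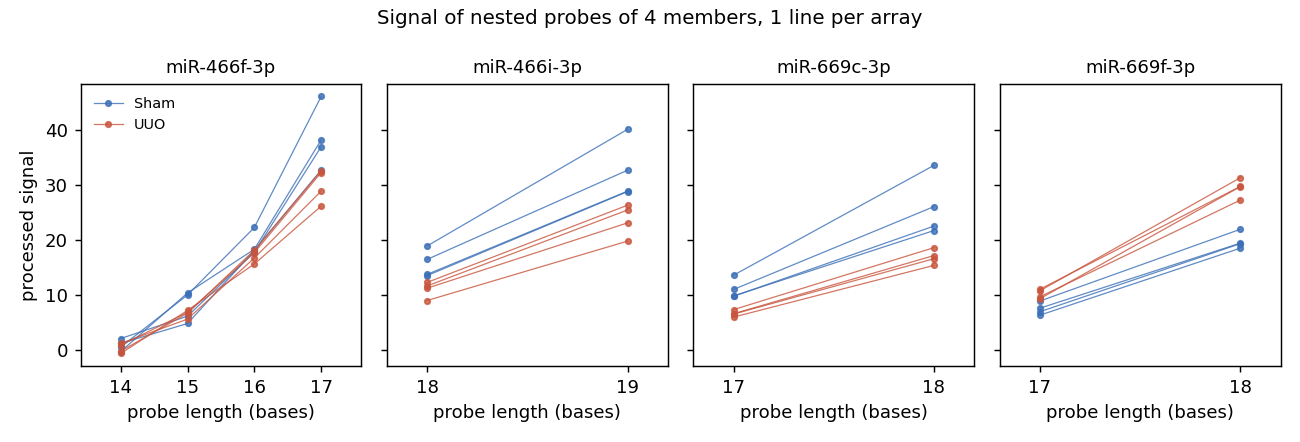
Unscaled processed signal (vertical axis) of the nested probes of miR-466f-3p, miR-466i-3p, miR-669c-3p and miR-669f-3p against probe length in bases (horizontal axis), with 1 line per array, Sham in blue and UUO in red. In each member shown the signal rises with each added base. The UUO lines lie below the Sham lines at both lengths in miR-466i-3p and miR-669c-3p and above them at both lengths in miR-669f-3p.

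Members detected on too few arrays to be tested were miR-466g (Sham 1, Sham 8 and UUO 1), miR-467b-3p (Sham 1 and Sham 8), miR-467a-3p (UUO 2) and miR-466b-3p (UUO 1). The software that made the files has its own call per miRNA, which allows weaker signals. By that call 11 members were detected on all 8 arrays, the 10 above and miR-466g, and 39 on none. A total of 5 members were detected on all 4 UUO arrays and 0 Sham arrays, and 0 members the other way. These were miR-466b-3p, miR-467a-3p, miR-467b-5p, miR-467e-5p and miR-669l-5p, beside 0.957% of all miRNAs on the array (18 of 1881). The annotation lists all 5 on chromosome 2, in the Sfmbt2 stretch.

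The 50 members left out of the log2 test were therefore also looked at on the linear signal with no floor, a step added after their values had been seen. On the scaled signal, all UUO arrays lay above all Sham arrays in 9 of the 50, beside 7.13% of the 1473 untested miRNAs, and below in 3, beside 6.59%. A limma fit of this linear signal over the 1473 called 8 of the 50 members higher (16.0%) and 3 lower (6.00%), beside 4.62% and 4.34% of all 1473. Without scaling it called 10 members higher and 3 lower, beside 83 and 57 of all 1473. The median difference was 0.438 signal units for the members and 0.0114 for all untested miRNAs.

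The probes of 5 of the 8 dim members that rose are shown because, unlike those above, they hold little of the repeat.
miR-466b-3p: tcttaTGTGTGcgtgta
miR-467e-5p: acatatacatgctCACACt
miR-467a-5p: cgcatatACAtgcaggca
miR-467c-5p: CACAtatacatgcacgcac
miR-669b-5p: acatgcacatgCACACA
The largest change was that of miR-466b-3p, with 11 listed positions, the first at chr2:10395901-10395917 (mm9). Its unscaled signal was 2.45, 3.39, 3.01 and 4.53 in Sham and 13.8, 12.5, 10.8 and 12.2 in UUO. The fitted linear difference was 7.99 ± 0.66 (SE), with an adjusted p of 0.000176 by limma. miR-467e-5p, at chr2:10427362-10427379 (mm9), read 4.97, 4.49, 4.93 and 4.72 in Sham and 11.1, 10.2, 10.5 and 11 in UUO, a fitted difference of 4.91 ± 0.31 with an adjusted p of 6.36e-05 by limma. In both, all UUO arrays lay above all Sham arrays by more than the spread within either group.

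The other dim members that rose were of the same families. Means in Sham and UUO (SD, n = 4 each) were 6.06 ± 1.26 and 12.6 ± 1.09 for miR-467a-3p, and 2.54 ± 0.77 and 7.63 ± 1.33 for miR-467a-5p, by name the opposite arm. Both have 10 RefSeq genes, all within Sfmbt2, so their signals cannot be assigned to 1 hairpin. The means were 3.31 ± 0.66 and 7.24 ± 1.31 for miR-467c-5p. For miR-669b-5p they were 4.06 ± 0.51 and 8.18 ± 0.48, for miR-669l-5p 6.20 ± 0.84 and 10.1 ± 1.19, and for miR-297c-5p 1.27 ± 0.44 and 3.65 ± 0.70. Of the 8, 4 were miR-467 members and 6 were 5p arms. All 8 have a listed position in the Sfmbt2 stretch, but miR-669b-5p is also listed on chromosomes 7 and 10. The probe of miR-669b-5p also stands for miR-297a-5p and miR-466f. That of miR-669l-5p also stands for miR-467h and miR-669d-5p, and that of miR-466b-3p for miR-466a-3p. Only miR-467a-3p has an alternating stretch of 8 bases on its probe, a GT stretch, so its direction differs from that of most tested members with such a stretch.

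The 3 dim members that fell were miR-467b-3p, miR-669h-5p and miR-669h-3p. miR-467b-3p, at chr2:10402927-10402941 (mm9), read 22.0, 11.3, 6.93 and 17.4 in Sham 1, 2, 3 and 8 and between 0.0228 and 2.01 in UUO. Its Sham arrays spread widely, and its fitted difference was −14.5 ± 2.78 with an adjusted p of 0.0117 by limma. Its opposite arm, miR-467b-5p, is the member described above that was detected only on UUO arrays. miR-669h-5p read 6.54 ± 2.92 in Sham and 0.315 ± 0.918 in UUO, and miR-669h-3p 5.34 ± 1.01 and 3.05 ± 0.341 (SD, n = 4 each).

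**Figure D4:**
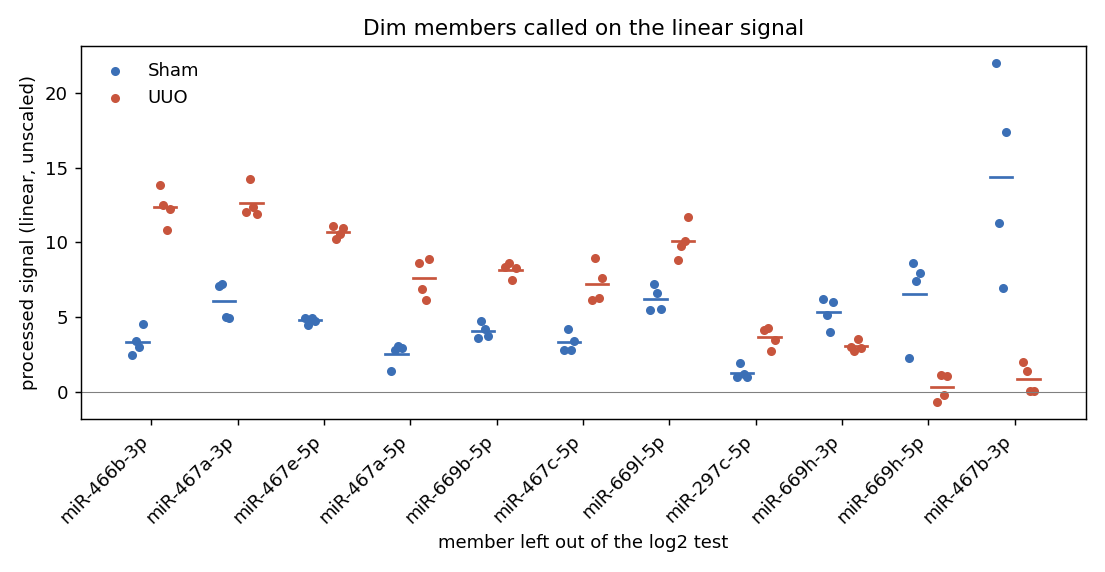
Unscaled processed signal (vertical axis, linear) of the 11 dim members called on the linear signal, on 4 Sham (blue) and 4 UUO (red) arrays, with lines at the group means. The 8 members on the left have all UUO points above all Sham points, and the 3 on the right have all UUO points below. The Sham points of miR-467b-3p spread from 6.93 to 22.0.

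These signals are weak: negative control spots averaged 0.273 to 1.18 units per array, with an SD between spots of 2.20 to 2.56 on 7 arrays and 10.8 on Sham 8. For miR-297c-5p the difference between the groups is about as large as that spread between single spots. Most dim members that were called rose and most tested members fell, and this difference was not tested.

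Signals of miRNAs known from particular cell types differed between the groups. Of the miRNAs taken as markers, 5 of 5 leukocyte and 4 of 4 fibroblast miRNAs were called higher in UUO, and 5 of 7 kidney tubule miRNAs lower. Of all tested miRNAs 39.7% were called higher and 27.7% lower. The summed scaled signal of the markers was 1.64 to 1.87 in Sham and 6.92 to 7.86 in UUO for leukocyte, 19.6 to 20.4 and 106 to 114 for fibroblast, and 58.6 to 63.2 and 34.5 to 39.9 for kidney tubule markers. Of 2 endothelial markers 1 was lower (12.5 to 13.2 in Sham and 10.67 to 12.4 in UUO), and of 3 red blood cell markers 2 were (3.71 to 5.46 and 2.11 to 3.84). No muscle or neural marker was called among 2 tested of each, by limma at an adjusted p under 0.05. Of these, miR-206-3p and miR-124-3p were detected on no array. How far each marker is particular to its cell type was not tested, including miR-21a-5p in the fibroblast list. A summed signal therefore cannot be read as the amount of that cell type. In whole tissue, fewer cells of a type and less RNA per cell cannot be told apart, and the part of cell makeup in the members' changes was not tested.

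**Figure D5:**
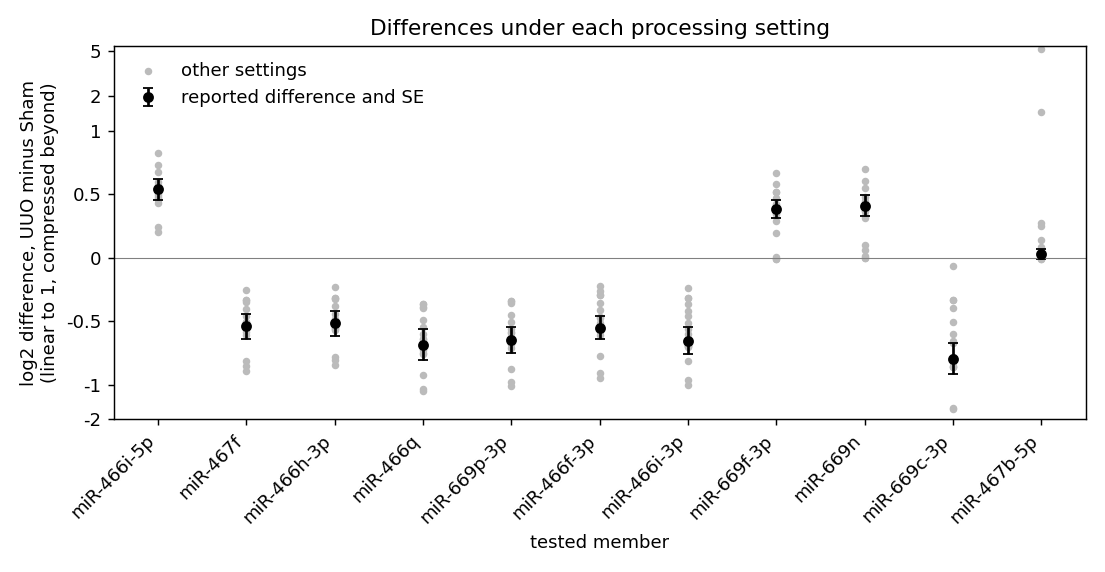
Log2 difference, UUO minus Sham (vertical axis, linear to 1 and compressed beyond), of the 11 tested members. Black points with bars are the reported difference and its SE, and grey points are the other processing settings and the fits without 1 array. For the 7 members that fell all grey points lie below 0. For miR-669f-3p and miR-669n some grey points lie at or just below 0, and for miR-467b-5p they reach 5.15.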

How the data were processed

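miRNA from 8 kidney samples was measured on 1-colour Agilent miRNA arrays. Total RNA was labelled with Cy3 by ligation, per the labels' protocols. The authors' scanner software was Agilent Feature Extraction 10.7.3.1, per the file headers, which also give mm9 for probe positions. The deposited intensity of a spot has its background subtracted and is not normalized between arrays. The deposited table of the series holds a ratio per miRNA and array: the software's total intensity times 1 factor per array, divided by the row's median. What the factor rests on is not stated in the sources used.

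Control spots and outlier spots were left out and spots of a probe averaged. Between 720 and 800 probes were detected per array, and 0 spots were saturated. Where a miRNA had several probes, the one with the highest mean stood for it. limma 3.58.1 in R 4.3.3 was fitted on log2 values with group as the only term and was tested on simulated data. The number of arrays limits the precision. Every tested member was named, as were members detected on any array and tested miRNAs outside the families whose probes hold the same repeats. Dim members called on the linear signal were named after their values were seen. The members and lists were chosen with earlier results of these data known. No genome sequence was used here.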

Additional observations from a re-analysis of the deposited data

Results flagged for a closer look

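In 24 groups of 4 arrays with some spread, 3 held an array that stood apart from the other 3 by Dixon's criterion; chance alone gives about 1 in 20. All were UUO 1. miR-669p-3p was at −4.10 on UUO 1 and at −3.90 to −3.87 on the other UUO arrays. miR-466g was at −4.69 on UUO 1 and at the floor of −4.89 on the others. miR-467b-5p was at −4.79 on UUO 1 and between −4.89 and −4.88 on the others. In the last pair the floor sets the spread of the other arrays.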

How the results depend on the processing

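The members called, 3 higher and 7 lower, were counted again under 14 other settings. The count of members called higher was 1 with the floor doubled (5 lower), 1 with the normexp correction, 6 on the total signal per miRNA and 7 on the deposited ratios. Of all tested miRNAs these settings called 129, 122, 109 and 118 higher, in that order. On the total signal and the ratios 16 members were tested, the extra ones being miR-466b-3p, miR-466g, miR-467a-3p, miR-467e-5p and miR-669l-5p, and undetected totals stand at a small constant there. Of the members called higher in both settings, 5 were detected by the software on 4 UUO and 0 Sham arrays. They were miR-467b-5p and the extra members other than miR-466g. These 5 met the filter through UUO alone, so their direction followed from the filter. The count of members called lower was 4 with scaling to the dmr control probes, beside 64 of all 408 tested miRNAs. There miR-466f-3p, miR-466h-3p and miR-467f had adjusted p-values of 0.0529, 0.089 and 0.0702 by limma. The median difference of the tested members, −0.54, was −0.24 with the doubled floor, −0.41 with the percentile over all probes, −0.35 with no scaling, −0.78 after quantile normalization, −0.26 with dmr scaling, −0.32 with normexp, −0.39 for the mean of all probes, −0.90 on the total signal and −0.85 on the ratios. The median of all tested miRNAs, 0.06, moved to 0.19 with the percentile over all probes, 0.26 with no scaling, 0.34 with dmr scaling, −0.23 on the total signal and −0.20 on the ratios. It was −0.00 with the doubled floor, −0.04 after quantile normalization, −0.03 with normexp and 0.03 for the mean of all probes. With normexp, with or without the filter, miR-467b-5p was at −0.0133, miR-669f-3p at −0.0104 and miR-669n at −0.00382. Normexp with no filter, chosen after seeing the data, called 1 member higher and 52 lower beside 1607 of all 1881 miRNAs lower, with a median of −0.32 for the 11 members, and the cause was not tested. Apart from the 3 members just named, no tested member changed sign under any of these settings. With members whose chosen probes lie within 2 edits taken as 1, 3 were higher and 6 lower, and with any of their probes, chosen after seeing the data, 2 and 5. With the replicate block 2 members were higher and 7 lower, and miR-669n was at 0.33 with an adjusted p of 0.0535 by limma. The labels do not say whether the shared numbers pair the samples. Same-numbered arrays had correlations of deviations of −0.00, 0.12 and −0.30. Other Sham and UUO pairs had −0.45 to 0.38, so these values cannot decide it. With each array left out in turn the counts stayed at 3 and 7, and the median ran from −0.61 to −0.46. The cause of the changes above was not tested. Signals near background, under about the floor of −4.89, limit what can be said of the other 50 members.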
